A study of Mus musculus with 29 samples.

Results

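Krt23, Krt8, Krt18, Krt19 and Krt7 are 5 keratin genes measured in mouse liver. They were taken as every non-control probe of the array whose gene name in the files is one of these symbols, which gave 5 probes, 1 per gene, of 39429 probes for 31693 gene names in all. Krt23 was selected on its measured log2 ratio, which was higher with phospholipids, so its levels under phospholipids are given as a description without a test. The other 4 genes are the keratins known from hepatocytes and bile ducts and were set beside it to see whether keratins moved together. Of the 5 members, 4 passed the filter on dim probes. Krt7 did not, and its probe was well above background on 5 of 29 arrays.

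The livers came from C57BL/6N wild-type males that were 3 months old at the start and had been on chow. All 4 groups were then fed for 7 weeks on a high-fat diet made with corn oil. About 7% of the dietary lipid was replaced by omega-3 phospholipids rich in phosphatidylcholine, which carry EPA and DHA, in cHF+PC+R (8 mice) and cHF+PC (8 mice). The diet of cHF+PC+R and cHF+R (6 mice) also held a low dose of rosiglitazone, an agonist of the nuclear receptor PPARγ. The cHF group (7 mice) received the high-fat diet alone, and no group on a low-fat diet was analysed here. Each liver's RNA was labelled with Cy5 and hybridised to an array of its own against a Cy3-labelled pool of all livers, so each array is 1 mouse and a log2 ratio of 0 is the level of the pool.

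Keratins are the intermediate filament proteins of epithelial cells and assemble as pairs of 1 type I and 1 type II chain. Hepatocytes make Krt8 (type II) and Krt18 (type I), while bile duct cells also make Krt19 (type I) and Krt7 (type II). Krt23 is a type I keratin that is scarce in healthy liver and is known as a gene induced in stressed mouse liver. Krt8 and Krt18 filaments protect hepatocytes from injury, and in Mallory-Denk bodies they aggregate with p62 and heat shock proteins.

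Each member was read by 1 probe of 60 bases, so each result below rests on a single sequence per gene. The probes are shown because each gene's values are the signal of this 1 sequence; the letters are the probe as the array design gives it.
Krt23: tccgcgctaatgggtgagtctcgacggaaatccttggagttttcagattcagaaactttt
Krt8: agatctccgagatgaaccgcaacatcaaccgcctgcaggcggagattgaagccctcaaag
Krt18: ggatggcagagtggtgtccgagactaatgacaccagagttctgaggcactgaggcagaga
Krt19: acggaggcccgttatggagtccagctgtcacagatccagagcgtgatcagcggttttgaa
Krt7: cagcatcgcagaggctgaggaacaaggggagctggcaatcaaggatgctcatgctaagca
By the files, in build mm9, the Krt23 probe lies at chr11:99339393-99339452 on the minus strand and the Krt19 probe at chr11:100002392-100002451 on the minus strand. The Krt8 probe lies at chr15:101828827-101828886 on the minus strand and the Krt18 probe at chr15:101862341-101862400 on the plus strand, 33.5 kb apart. The Krt7 probe lies at chr15:101253718-101253777 on the plus strand. Exon and UTR limits in mm9 were not used here.

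Krt23 separated the livers by phospholipids. Its log2 ratio (lowest, median, highest) was -0.89, 0.44 and 1.01 in cHF+PC+R livers. It was -0.09, 0.50 and 1.49 in cHF+PC livers. It was -2.76, -2.13 and -1.62 in cHF+R livers, against -3.45, -2.95 and -2.39 in cHF livers. Every liver given phospholipids lay above every liver without them, while the 2 phospholipid groups overlapped each other and so did cHF+R and cHF.

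**Figure D1:**
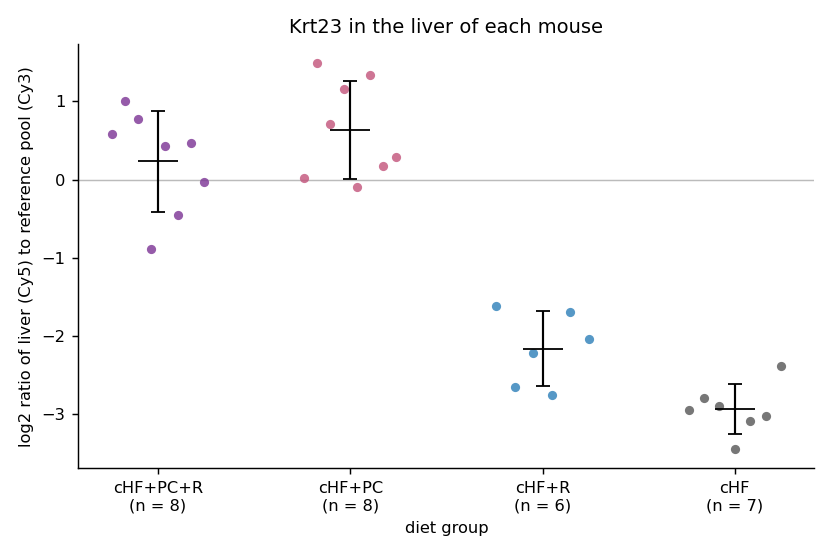
Log2 ratio of Krt23 in each liver to the reference pool (vertical axis) by diet group, 1 point per mouse, with the mean and SD as horizontal and vertical bars. The 16 livers with phospholipids sit at -0.89 or above and the 13 livers without them at -1.62 or below.

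The mean log2 ratio of Krt23 was 0.64 ± 0.63 in cHF+PC and -2.94 ± 0.32 in cHF (SD, n = 8 and 7), a change of 3.58 ± 0.26 (SE of the fit) or 12.0-fold, with a 95% interval of 8.23- to 17.4-fold. It was 0.23 ± 0.65 in cHF+PC+R (SD, n = 8), 3.18 ± 0.26 above cHF, or 9.05-fold. Against the cHF+R mean of -2.17 ± 0.48 (SD, n = 6), cHF+PC+R was higher by 2.40 ± 0.28, or 5.28-fold. These comparisons chose the gene or share its contrast, so no p is given. Of 19465 genes, Krt23 had the largest increase in cHF+PC against cHF and in cHF+PC+R against cHF+R, and the second largest in cHF+PC+R against cHF.

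The gaps between the groups were wide on the scale of their spread, in comparisons that chose Krt23 or share its contrast. The gaps, shares and slide counts below describe a gene picked for this difference and are not a test of it. The lowest cHF+PC liver was 2.30 above the highest cHF liver, the lowest cHF+PC+R liver 1.5 above the highest cHF liver and 0.73 above the highest cHF+R liver. As background, groups without overlap and higher in the first group were seen for 0.619% of genes in cHF+PC against cHF, 1.09% in cHF+PC+R against cHF and 0.831% in cHF+PC+R against cHF+R. The arrays lay on 8 slides, each scanned once with at most 1 array of a group. Within slides, Krt23 was higher in cHF+PC than in cHF on 7 of 7 slides, by 2.68 to 4.44. The cHF+PC+R liver was above the cHF liver on 7 of 7 slides and above the cHF+R liver on 6 of 6.

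The Cy5 signal alone showed the same order without the reference. The Krt23 spot had a median intensity of 6757 in cHF+PC+R, 7765 in cHF+PC and 1002 in cHF+R, against 519 in cHF, and the spot passed the scanner's test against background on all 29 arrays. The Cy3 signal of the pool at this spot lay between 1719 and 2341 on 28 arrays. On the array of cHF+PC+R replicate 8 the spot was dim in both channels, at 1516 in Cy5 and 644 in Cy3, and its log2 ratio stayed within its group. Without this liver the change of cHF+PC+R against cHF was 3.21.

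**Figure D2:**
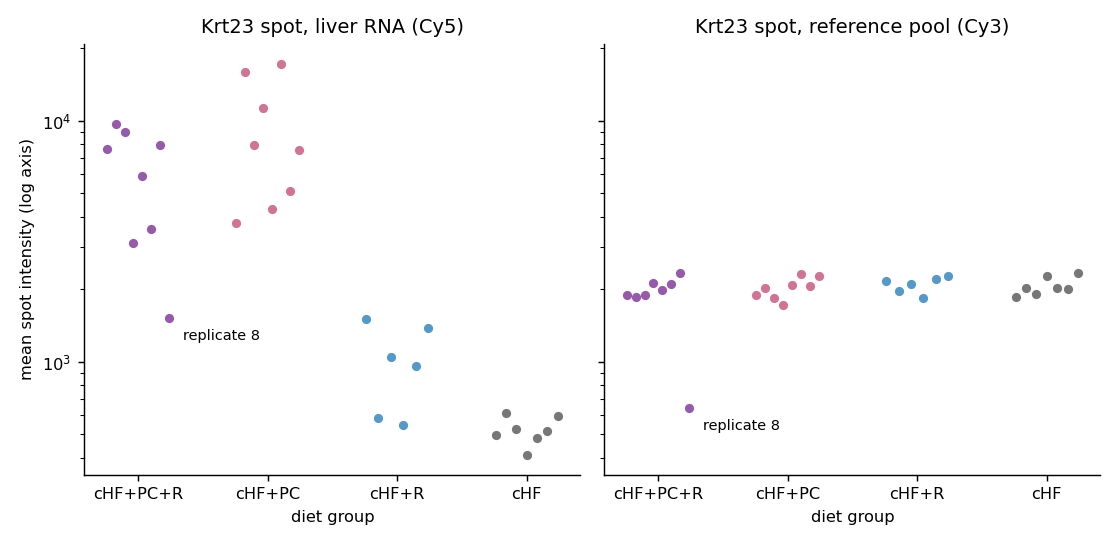
Mean intensity of the Krt23 spot (log axis) in the liver channel, Cy5, and in the reference channel, Cy3, by diet group, 1 point per array. The Cy5 medians are 6757 in cHF+PC+R, 7765 in cHF+PC, 1002 in cHF+R and 519 in cHF, while Cy3 stays between 1719 and 2341 except on the array of cHF+PC+R replicate 8, marked at 1516 and 644.

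The rosiglitazone comparisons share their cHF and cHF+PC livers with the contrast that chose Krt23, so these values too are a description, with no p. In cHF+R the Krt23 log2 ratio was 0.78 ± 0.28 (SE) higher than in cHF, or 1.71-fold with a 95% interval of 1.15 to 2.56. This interval is not adjusted for the number of genes, so its lower limit above 1 is not a call. Of 6 cHF+R livers, 4 lay above all cHF livers, and cHF+R was higher on 5 of 5 shared slides. With scaling between arrays the change was 0.21, the lowest of 15 alternatives, and the highest was 1.03, with median centring. With 1 array left out it was 0.67 to 0.90.

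With phospholipids present, the change in cHF+PC+R against cHF+PC was -0.40 ± 0.26, with a 95% interval of -0.92 to 0.12 that includes 0, and Krt23 was higher on 4 slides and lower on 4. Without cHF+PC+R replicate 4, the lowest liver of its group, it was -0.24; it was -1.12 with scaling between arrays and -0.18 with array weights. The phospholipid change was smaller with rosiglitazone than without it by 1.18 ± 0.38 on the log2 scale (95% interval of the interaction -1.96 to -0.40), which is a description because it holds the contrast that chose the gene.

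Krt8, the type II keratin of hepatocytes, was higher with both supplements together. Its log2 ratio (lowest, median, highest) was -0.23, 0.03 and 0.28 in cHF+PC+R livers and -0.35, -0.09 and 0.18 in cHF+PC livers. It was -0.49, -0.24 and -0.13 in cHF+R livers, against -0.51, -0.42 and -0.02 in cHF livers. The groups overlapped, with 5 of 8 cHF+PC+R livers above all cHF livers.

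Krt8 rose by 0.34 ± 0.09 (SE) in cHF+PC+R against cHF, or 1.27-fold with a 95% interval of 1.12 to 1.44 (limma, adjusted p = 0.0135). It was higher on 7 of 7 slides, by 0.04 to 0.65, where 4.73% of all genes rose and 9.5% passed in either direction. The value stayed between 0.30 and 0.39 with any 1 liver left out, and it passed in each case. It missed the threshold with median centring (0.46, adjusted p = 0.878), with scaling between arrays (0.36, adjusted p = 0.2) and with Cy5 alone (0.35, adjusted p = 0.0608). The cHF liver highest in Krt8, replicate 4, is also the array that stood apart, with 80.83% of spots well above background against 55.02% to 62.52% on the others; without it the change was 0.39.

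The single supplements gave smaller values for Krt8 that did not pass. The change of Krt8 in cHF+PC against cHF was 0.23 ± 0.09 (adjusted p = 0.146; 5 of 7 slides higher), where 3.94% of all genes passed. It was 0.06 ± 0.10 in cHF+R against cHF (adjusted p = 0.816; 95% interval -0.13 to 0.26), where 3.11% of genes passed. Krt8 changed by 0.28 ± 0.09 in cHF+PC+R against cHF+R (adjusted p = 0.0645; 5 of 6 slides higher), where 7.16% of genes passed; without cHF+PC+R replicate 1 it passed at 0.31 (adjusted p = 0.0481), and likewise without cHF+PC+R replicate 6 (0.31, adjusted p = 0.0386). Its change was 0.11 ± 0.09 in cHF+PC+R against cHF+PC (adjusted p = 0.767), a comparison in which 0.134% of genes passed. With the phospholipid effect averaged over rosiglitazone, a contrast added after these values were seen, Krt8 rose by 0.26 ± 0.06 or 1.19-fold (limma, adjusted p = 0.00648), where 16.3% of genes passed; it did not pass there with median centring (0.17, adjusted p = 0.992) or with scaling between arrays (0.27, adjusted p = 0.061).

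Krt18, the type I partner of Krt8 in hepatocytes, did not pass in any of the 5 comparisons. Its log2 ratio (lowest, median, highest) was -0.25, 0.06 and 0.46 in cHF+PC+R livers and -0.24, 0.05 and 0.18 in cHF+PC livers. It was -0.34, -0.11 and 0.13 in cHF+R livers, against -0.35, -0.07 and 0.13 in cHF livers. The 4 groups overlapped one another, and 3 of 8 cHF+PC+R livers lay above all cHF livers.

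The largest changes of Krt18 were 0.19 ± 0.10 in cHF+PC+R against cHF+R (adjusted p = 0.275) and 0.18 ± 0.10 in cHF+PC+R against cHF (limma, adjusted p = 0.258). The 95% interval of the second ran from -0.02 to 0.37, which includes the change of Krt8, so the values do not show that the pair differed; that difference was not tested. The change was 0.13 ± 0.10 in cHF+PC against cHF (adjusted p = 0.511) and in cHF+R against cHF -0.01 ± 0.10 (adjusted p = 0.978). Averaged over rosiglitazone, the phospholipid change of Krt18 was 0.16 ± 0.07 (adjusted p = 0.123); with array weights it passed there, at 0.18 (adjusted p = 0.0456).

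Krt19, a type I keratin of bile duct cells, was dim, with Cy5 intensities of 128 to 295, but well above background on all 29 arrays. Its log2 ratio (lowest, median, highest) was -0.22, -0.01 and 0.46 in cHF+PC+R livers and -0.40, 0.04 and 0.16 in cHF+PC livers. It was -0.39, 0.03 and 0.31 in cHF+R livers, against -0.12, 0.02 and 0.06 in cHF livers. All 4 groups overlapped, and the 4 group means lay within 0.03 of 0.

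The change of Krt19 was -0.02 ± 0.10 in cHF+PC against cHF (95% interval -0.21 to 0.17, adjusted p = 0.943), -0.01 ± 0.10 in cHF+R against cHF (adjusted p = 0.983) and 0.01 ± 0.10 in cHF+PC+R against cHF (limma, adjusted p = 0.97). A change of Krt19 as large as that of Krt23 lies outside these intervals. At this signal the offset in the background correction pulls ratios toward 0. Krt7, the type II keratin of bile duct cells, had Cy5 intensities of 54 to 78 on 28 arrays and 159 on the array of cHF replicate 4. It was well above background on 0 of 8 cHF+PC+R arrays, 3 of 8 cHF+PC arrays and 0 of 6 cHF+R arrays, against 2 of 7 cHF arrays, so no fold is given. In the fit without the filter its adjusted p lay between 0.325 and 0.971.

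**Figure D3:**
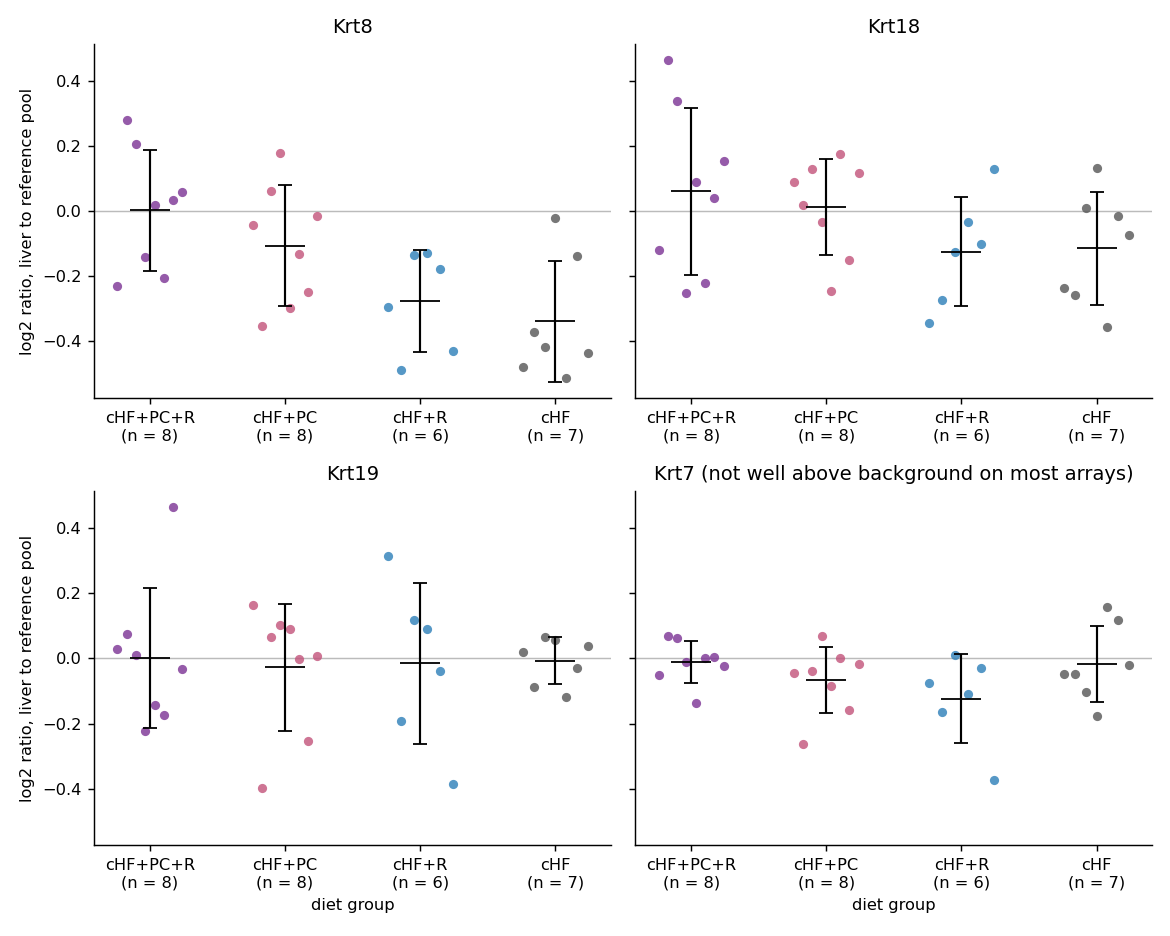
Log2 ratio to the reference pool (vertical axis, the same in all panels) of Krt8, Krt18, Krt19 and Krt7 by diet group, 1 point per mouse, with the mean and SD as bars. The Krt8 mean is highest in cHF+PC+R and lowest, at -0.34, in cHF, and the Krt19 means lie within 0.03 of 0.

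In no member did the phospholipid change differ with and without rosiglitazone beyond the spread in the limma fit of the interaction (Krt8 0.05 ± 0.13, adjusted p = 0.973; Krt18 0.06 ± 0.14, adjusted p = 0.969; Krt19 0.04 ± 0.14, adjusted p = 0.98), leaving aside Krt23, whose interaction was not tested. Of all 19465 genes, 0 passed (0%), with 1292 at an unadjusted p under 0.05.

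**Figure D4:**
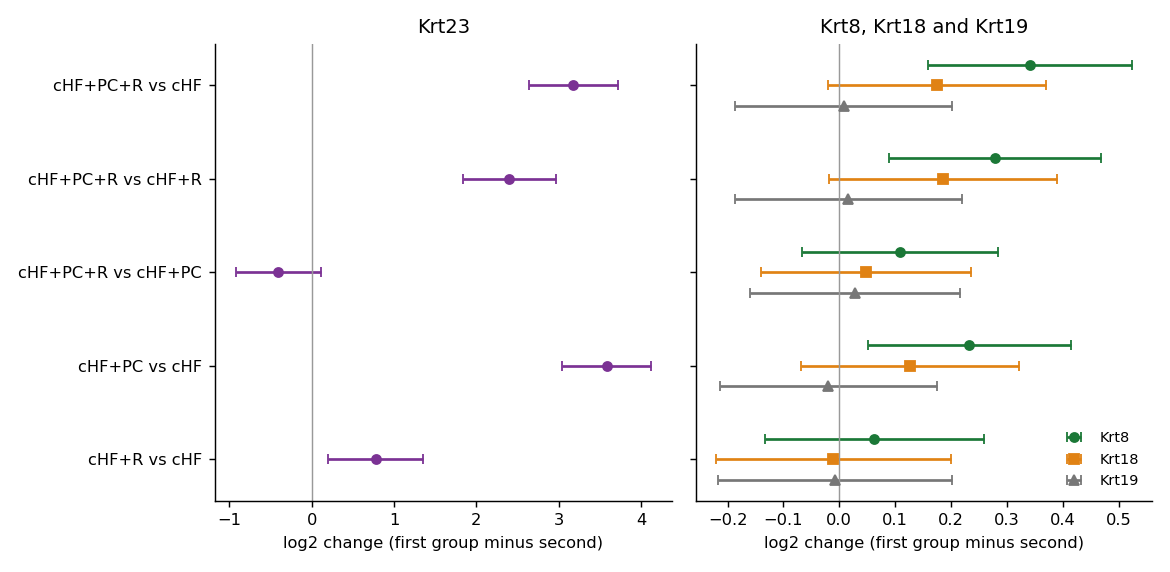
Log2 change of each member (horizontal axis, first group minus second) with its 95% interval from the fit, by comparison; the 2 panels have different scales. Krt23 reaches 3.58 in cHF+PC against cHF, while the largest value of Krt8, Krt18 or Krt19 is 0.34, for Krt8 in cHF+PC+R against cHF.

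From liver to liver within a diet group, Krt8 and Krt18 went together. After each group mean was taken off, their log2 ratios had Pearson r = 0.65 over the 29 arrays, and 11 of 18180 genes followed Krt8 more closely than Krt18 did. By group, r was 0.959 in cHF+PC+R, 0.461 in cHF+PC, 0.095 in cHF+R and 0.766 in cHF, over 6 to 8 livers each. The within-group r of Krt23 was 0.173 with Krt8, 0.401 with Krt18 and 0.131 with Krt19. By group, Krt23 and Krt18 had r = 0.794 in cHF+PC+R, 0.441 in cHF+PC and -0.148 in cHF+R, against -0.272 in cHF. Krt23 and Krt8 had r = 0.647 in cHF+PC+R, 0.0834 in cHF+PC and 0.0749 in cHF+R, against -0.595 in cHF. These values are descriptions, and the points share the array, its normalization and the pool.

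Some of the genes that followed Krt8 are related to it: a pseudogene and another type II keratin. The Krt8 pseudogene Krt8-ps (named Gm5604 in the files) had a within-group r with Krt8 of 0.887. The brightest of 3 probes for Krt85, a type II hair keratin, had r = 0.94, while another Krt85 probe that passed the filter had r = -0.351. Whether these probes bind the Krt8 transcript, or the Krt8 probe theirs, was not tested. The values of Krt8, Krt8-ps and this Krt85 probe therefore cannot be taken as separate readings. Krt8-ps changed by 0.26 and Krt85 by 0.26 in cHF+PC+R against cHF, beside 0.34 for Krt8, and neither of the first pair passed. Averaged over rosiglitazone, the phospholipid change was 0.20 for Krt8-ps and 0.19 for Krt85, beside 0.26 for Krt8. Krt8-ps and Krt85 were picked after their values were seen, so these averaged changes are a description without a p. Desmin, the filament gene of stellate cells, had a dim probe (median Cy5 of 112) with a within-group r of 0.766 with Krt8. The probe of Krt13, another type I keratin (median Cy5 of 258), had a within-group r of 0.663 with Krt8, beside 0.653 for Krt18.

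**Figure D5:**
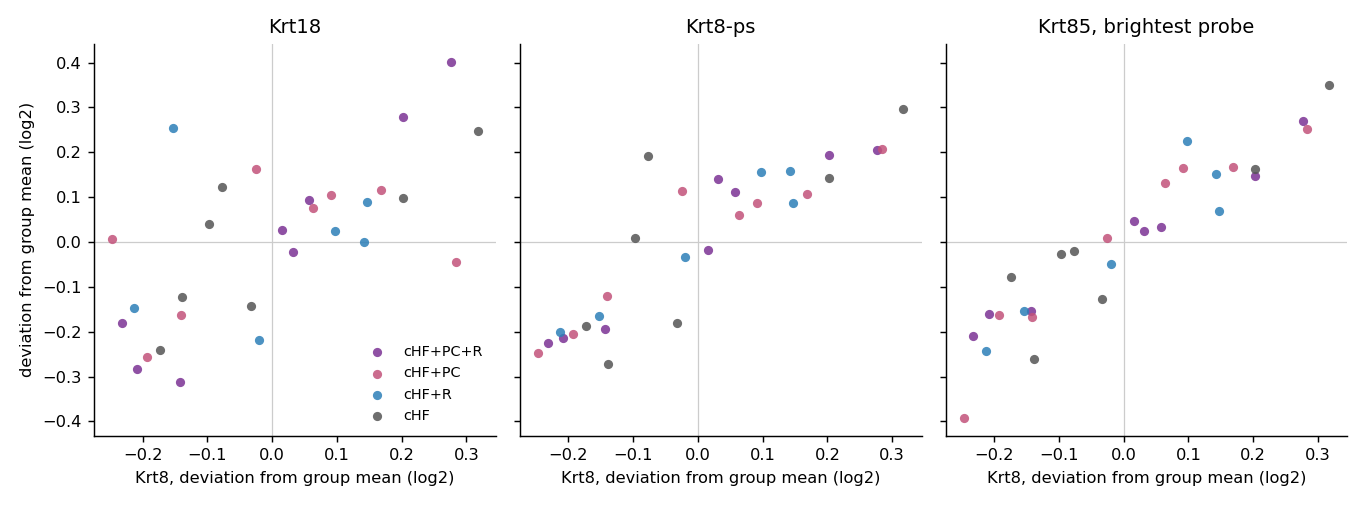
Deviation of each liver from its diet group's mean log2 ratio, for Krt8 (horizontal axis) against Krt18, Krt8-ps and the brightest Krt85 probe (vertical axes), 29 livers coloured by group. The points follow a line most closely for Krt85 (r = 0.94) and Krt8-ps (r = 0.887), and less closely for Krt18 (r = 0.65).

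Beyond the 5 members, 50 keratin genes had a probe and 21 passed the filter; each of the other 29 was well above background on 5 arrays or fewer. Of the 21, 0 passed in cHF+PC against cHF in the limma fit (1 at an unadjusted p under 0.05), where 3.94% of all genes did, and their median change was 0.02, beside 0.00 for all genes. Krt222 rose by 0.18 ± 0.06 in cHF+PC+R against cHF (adjusted p = 0.0495). That call was lost under 8 of 14 alternatives and in 19 of 29 fits with 1 array left out. Krt73 rose by 0.14 ± 0.04 in cHF+PC+R against cHF+R (adjusted p = 0.0436), a call lost under 6 of 14 alternatives and in 14 of the 29 fits. Rosiglitazone on top of phospholipids, cHF+PC+R against cHF+PC, gave 0 of the 21, with 1 at an unadjusted p under 0.05. Of all genes, 0.134% passed there.

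Krt79, a type II keratin known from hair follicles and sebaceous glands, was the other keratin with a large change, and it was highest in cHF+R. Its log2 ratio (lowest, median, highest) was -0.53, -0.23 and 0.94 in cHF+PC+R livers and -0.93, -0.37 and -0.09 in cHF+PC livers. It was -0.01, 0.70 and 1.52 in cHF+R livers, against -0.78, -0.42 and -0.14 in cHF livers. All 6 cHF+R livers lay above all cHF livers, where 1.16% of genes lay apart in this direction.

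Krt79 rose by 1.25 ± 0.21 in cHF+R against cHF (limma, adjusted p = 0.000591; higher on 5 of 5 slides) and fell by 0.90 ± 0.21 in cHF+PC+R against cHF+R (adjusted p = 0.00755; lower on 6 of 6 slides). The first held under all 14 alternatives; the second missed the threshold with scaling between arrays (adjusted p = 0.0677) and with the 2 compared groups alone (adjusted p = 0.054). Its change was 0.35 ± 0.20 in cHF+PC+R against cHF (adjusted p = 0.289), 0.41 ± 0.19 in cHF+PC+R against cHF+PC (adjusted p = 0.57), and in cHF+PC against cHF -0.07 ± 0.20 (adjusted p = 0.906). In the averaged contrasts, added after its values were seen, Krt79 rose by 0.83 with rosiglitazone (adjusted p = 0.000456), where 4.23% of genes passed. It fell by 0.49 with phospholipids (adjusted p = 0.0206), where 16.3% of genes passed, without passing under median centring (-0.59, adjusted p = 0.0968). This average joins a change of -0.07 without rosiglitazone and -0.905 with it. The interaction of Krt79 was -0.84 ± 0.29 (limma, adjusted p = 0.648). Adipocyte genes also rose in cHF+R against cHF, where 2.01% of all genes rose. Of 5 adipocyte markers 2 were tested, and both rose there: Cfd (adipsin) by 4.51 ± 0.84 and Retn (resistin) by 0.65 ± 0.18. The Retn call was lost under 6 of 13 alternatives and in 19 of 29 fits with 1 array left out. Cfd fell by 3.01 ± 0.84 in cHF+PC+R against cHF+R (adjusted p = 0.0266). This Cfd call was lost under 3 of 14 alternatives and in 6 of the 29 fits. Neither of the 2 genes passed in cHF+PC+R against cHF+PC (limma, Cfd 2.62, adjusted p = 0.225, and Retn 0.255, adjusted p = 0.699). Their mean log2 ratio ran from -2.71 to 2.01 in cHF+PC+R, -3.24 to -1.46 in cHF+PC and -0.72 to 1.92 in cHF+R, against -2.49 to -1.36 in cHF. Adipoq, Plin1 and Lep were well above background on 2 arrays or fewer, and the part of adipocyte RNA in the result for Krt79 was not tested.

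Of 14 genes listed as partners of keratin filaments, 14 were measured. They include linker and desmosome genes and the other filament genes Vim and Lmna. With both supplements, cHF+PC+R against cHF, 2 of 14 rose and 0 fell, where 4.73% of all genes rose and 4.77% fell: Plec, the linker plectin, by 0.42 ± 0.09 (limma, adjusted p = 0.00234), and Ppl, the linker periplakin, by 0.55 ± 0.15 (adjusted p = 0.0204). With phospholipids alone 1 fell, the desmosome gene Pkp2, by 0.34 ± 0.08 in cHF+PC against cHF (adjusted p = 0.0129). It also fell by 0.27 ± 0.08 in cHF+PC+R against cHF+R (adjusted p = 0.0434). The second call was lost under 7 of 14 alternatives and in 9 of 29 fits with 1 array left out. Of all genes, 2.13% fell in the first of these comparisons and 3.85% in the second. In cHF+R against cHF 0 passed, where 3.11% of all genes did, with 2 at an unadjusted p under 0.05. The median change of the 14 in cHF+PC+R against cHF was 0.09, beside 0.01 for all genes. Desmoplakin (Dsp) changed by 0.12 and vimentin (Vim) by 0.20 there, and neither passed.

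Of 14 genes of Mallory-Denk bodies and filament stress, 13 were on the array and 12 were tested. In cHF+PC+R against cHF, 2 of 12 rose and 0 fell, beside the same 4.73% and 4.77% of all genes: the heat shock cochaperone Dnajb1 by 0.53 ± 0.14 (limma, adjusted p = 0.0149) and the NRF2 target Nqo1 by 0.48 ± 0.15 (adjusted p = 0.0404). The Nqo1 call was lost under 9 of 14 alternatives and in 7 of 29 fits with 1 array left out. At an unadjusted p under 0.05 in that comparison were 9 of the 12, beside 4765 of all 19465 genes. The median change of the 12 there was 0.25, beside 0.01 for all genes. In cHF+PC against cHF and in cHF+R against cHF 0 of the 12 passed, where 3.94% and 3.11% of all genes did. An unadjusted p under 0.05 was seen for 3 of the 12 in each, beside 3591 and 2905 of all genes. Sqstm1, which encodes p62, changed by 0.22 with both supplements, 0.12 with phospholipids and 0.17 with rosiglitazone, without passing. The mean log2 ratio of the 12 genes ran from -0.13 to 0.32 in cHF+PC+R, -0.09 to 0.13 in cHF+PC and -0.10 to 0.21 in cHF+R, against -0.21 to -0.11 in cHF.

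Because bile duct cells make Krt19, Krt7 and, like hepatocytes, Krt8 and Krt18, their other markers were set beside these results. In whole liver, fewer cells of a type and less RNA per cell cannot be told apart. Of 16 cholangiocyte and progenitor markers 14 were tested, and Epcam was well above background on 2 of 29 arrays. None of the 14 passed in cHF+PC against cHF (0 by limma), where 3.94% of all genes did. At an unadjusted p under 0.05 there were 3 of the 14, beside 3591 of all 19465 genes. The cilium gene Pkhd1 was the 1 marker that fell in cHF+PC+R against cHF, by 0.37 ± 0.12 (limma, adjusted p = 0.0437). That call was lost under 7 of 14 alternatives and in 10 of 29 fits with 1 array left out. Of all genes, 4.77% fell in that comparison. In cHF+R against cHF, 1 fell, the anion exchanger Slc4a2, by 0.37 ± 0.07 (adjusted p = 0.00292), and it rose by 0.27 ± 0.07 in cHF+PC+R against cHF+R (adjusted p = 0.0192). Of all genes, 1.1% fell in the first comparison and 3.31% rose in the second. In the first, 6 of the 14 markers had a positive change. There, 4 of the 14 were at an unadjusted p under 0.05, beside 2905 of all 19465 genes. The mean log2 ratio of the 14 ran from -0.10 to 0.09 in cHF+PC+R, -0.12 to 0.07 in cHF+PC and -0.03 to 0.07 in cHF+R, against -0.01 to 0.06 in cHF, ranges that overlap.

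Hepatocyte markers, the label of the tissue, were bright, and 11 of 11 were tested. As background for the calls in this and the next lists, phospholipids alone moved 3.94% of the 19465 genes past the threshold, in either direction, relative to cHF. With both supplements this share was 9.5% relative to cHF and 7.16% relative to cHF+R. Transthyretin (Ttr) fell by 0.51 ± 0.10 in cHF+PC against cHF (limma, adjusted p = 0.00511). It fell by 0.59 ± 0.10 in cHF+PC+R against cHF (adjusted p = 0.000537) and the urea cycle gene Cps1 rose by 0.53 ± 0.14 (adjusted p = 0.0152), as it did by 0.56 ± 0.15 in cHF+PC+R against cHF+R (adjusted p = 0.019). Of 8 stellate cell and fibroblast markers, 1 passed in each phospholipid comparison, the stellate cell gene Lrat, which fell by 0.49 ± 0.09 in cHF+PC against cHF (adjusted p = 0.00198), by 0.34 ± 0.09 in cHF+PC+R against cHF (adjusted p = 0.0148), and by 0.57 ± 0.09 in cHF+PC+R against cHF+R (adjusted p = 0.000285). The other markers of that list did not pass. Col1a1, Col3a1, Acta2, Dcn and Reln had positive changes in cHF+PC+R against cHF, of 0.05 to 0.38, and the median of the 8 was 0.06. In cHF+PC against cHF 1 of the 8 had a positive change (median -0.105), and in cHF+PC+R against cHF+R 2 did (median -0.126). Of 7 endothelial markers 1 passed, the cadherin Cdh5, which fell by 0.16 ± 0.05 in cHF+PC against cHF (adjusted p = 0.0452) and by 0.15 ± 0.05 in cHF+PC+R against cHF+R (adjusted p = 0.0483). These calls were lost under 7 and 8 of 14 alternatives, and in 13 and 19 of 29 fits with 1 array left out. Of 4 pancreatic acinar genes tested 1 passed, the elastase gene Cela1, which fell by 0.30 ± 0.09 in cHF+PC against cHF (adjusted p = 0.0456) and by 0.31 ± 0.09 in cHF+PC+R against cHF (adjusted p = 0.0204). Its calls were lost under 9 and 4 of 14 alternatives, and in 14 and 1 of the 29 fits. Cela2a, Prss2, Pnlip and Cpa1 of that list were well above background on 4 arrays or fewer. Of the 7 macrophage and 5 mesothelial markers tested, 0 passed in cHF+PC against cHF and 0 in cHF+PC+R against cHF, with 0 at an unadjusted p under 0.05 in either. The brightest of them, Cd5l of macrophages and Msln of mesothelium, changed by -0.10 and 0.11 in cHF+PC against cHF. The part of these cell types in the results for the keratins was not tested.

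The genes most like Krt23 were sought over 18180 genes with a value on all 29 arrays, by Pearson r of log2 ratios. Since Krt23 splits the arrays into those with and without phospholipids, r over all arrays mainly ranks genes by that split. The highest were Adssl1, a muscle-type adenylosuccinate synthase (r = 0.905), the sterol exporter genes Abcg8 (0.884) and Abcg5 (0.879), Igfbp2 (0.879), the transcript ENSMUST00000147466 (0.876), Cyp4f15 (0.865), Gstt2 (0.856), Hsd17b6 (0.855), Ces2a (0.853) and Cyp3a59 (0.842). The lowest were the apolipoprotein gene Apoa4 (-0.884), Fam25c (-0.88), Tmem41a (-0.875), Dntt (-0.872) and Dpy19l1 (-0.869). With median centring in place of loess, r was 0.595 for Adssl1, -0.235 for Tmem41a and -0.278 for Dpy19l1, while it was 0.825 for Abcg8 and 0.828 for Abcg5.

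After group means were taken off, the genes most like Krt23 were Cds2 (r = 0.694), a phospholipid synthesis gene, Ugt1a10 (0.656), Eif4ebp1 (0.651), Abcg8 (0.648) and Alkbh6 (0.644). As background, the median absolute within-group r with Krt23 was 0.174 over genes and the 99th percentile 0.56. Abcg8 is in both lists: within groups its r with Krt23 was 0.787 over the 16 phospholipid arrays and 0.11 over the 13 others, and for Abcg5 it was 0.799 and -0.389. The points share arrays and the pool, and no p is given.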

How the data were processed

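Per the file headers, the deposited scanner files hold linear spot intensity in Cy5 and Cy3 with local background, from Agilent Feature Extraction 10.5.1.1, per the submitters' processing notes. A deposited table of log2 values for 25806 probes was used as an alternative; it followed the Cy5 channel of its own array on 29 of 29 columns after centring each probe, every column has a median of 9.03, and the normalization behind it is not given in the sources used. Per the labels, 1 array of the high-fat group and 1 of the rosiglitazone group were excluded by the authors, RNA was 1000 ng per liver and dyes were not swapped.

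Intensities were background-corrected with normexp (offset 50), which compresses the ratios of dim spots, and loess-normalized within arrays in limma 3.58.1 (R 4.3.3, data.table version 1.17.8). Control spots and spots marked as outliers were left out. Kept were the 23932 probes with at least 20 values that cleared background in Cy5 on 6 or more arrays; 19465 genes were tested, each by its brightest probe. Gene names came from RefSeq (GRCm38.p6, names only) by accession (26412 probes), symbol (3854) or synonym (735), or stayed as in the file (8428).

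A model of 4 group means over all 29 arrays was fitted with limma, two-sided, with Benjamini-Hochberg adjustment over all genes and a threshold of 0.05. Genes past it are said to have risen or fallen. Replicates are livers of separate mice, and their number limits the precision. The fit was tested on simulated data. Tests of Krt23 under rosiglitazone were planned but are given without p, since they share livers with the contrast that chose it. The members, lists and tests were chosen with earlier results of these data known; names followed a fixed rule: all members, up to 3 called genes per list and comparison, the brightest gene of a cell type list without calls, and the 10 highest, 5 lowest and 5 highest within-group r with Krt23. The alternatives were other background corrections, scalings, filters, probe summaries, blocks, weights and leaving out each array. Counts of list gene calls lost under 13 or 14 alternatives do not include the 29 fits with 1 array left out. Des, Krt8-ps, Krt85 and Krt13 were picked after their values were seen.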

Additional observations from a re-analysis of the deposited data

Results flagged for a closer look

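In 52 sets of values (5 members and the other keratins Krt79, Krt8-ps and Krt85 by group, for the log2 ratio, and the 5 members by group for the log2 intensity of the reference channel), 5 had a lowest or highest array far from the rest by Dixon's 95% value, where chance gives about 1 in 20. For Krt19, cHF+PC+R replicate 7 had a log2 ratio of 0.46, with the next liver at 0.07. In the reference channel, the log2 Cy3 intensity of the Krt23 spot was 9.33 on cHF+PC+R replicate 8, with the nearest array at 10.9. On the same array the Krt19 spot was at 6.67, the lowest of its group. The Krt8 spot was at 12.3 on cHF+PC+R replicate 7, the highest of its group, and the Krt7 spot at 6.81 on cHF replicate 4, the array with the most spots above background. The cause of each was not tested.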

How the results depend on the processing

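Krt23 was higher with phospholipids under every alternative listed in the processing notes, at 3.32 to 4.11 in cHF+PC against cHF and 3.46 to 3.68 with 1 array left out. Krt18 and Krt19 were called under none of them in the 5 comparisons or the interaction, while the averaged phospholipid change of Krt18 passed with array weights (0.18, adjusted p = 0.0456). The sign changes below are of values that did not pass, and the cause of no change given here was tested. The numbers of genes past the threshold were 766 in cHF+PC against cHF, 606 in cHF+R against cHF, 1849 in cHF+PC+R against cHF, 1393 in cHF+PC+R against cHF+R, 26 in cHF+PC+R against cHF+PC and 0 for the interaction (1292 at an unadjusted p under 0.05 in limma). Each comparison is named below by its first group and the group it was set against. Each list gene named as called, apart from Krt79 in cHF+R against cHF, lost its call with scaling between arrays. Signal over background limits Krt19, which is dim, and Krt7, which gave no fold.

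With median centring in place of loess, which moved the median of all genes by 0.15 in cHF+R against cHF, the first 5 numbers were 10, 82, 77, 52 and 2. The share that rose was 93.9% of the 82, against 64.5% before, and 13.5% of the 52, against 46.2% before. Krt8 in cHF+PC+R against cHF was 0.46 without passing (adjusted p = 0.878). Krt18 was 0.34 and Krt19 0.043 in cHF+R against cHF, Krt18 was -0.055 in cHF+PC+R against cHF+R, and the interaction was -0.16 for Krt8 and -0.20 for Krt18. With scaling between arrays the numbers were 255, 70, 144, 74 and 5, and 85.7% of the 70 and 28.4% of the 74 rose. Krt8 in cHF+PC+R against cHF was 0.36 (adjusted p = 0.2). Krt19 was 0.013 in cHF+PC against cHF and -0.010 in cHF+PC+R against cHF+PC, where Krt18 was -0.14, and the Krt18 interaction was -0.094. With Cy5 alone the numbers were 375, 293, 765, 643 and 40, and Krt8 in cHF+PC+R against cHF was 0.35 (adjusted p = 0.0608). Krt19 was 0.028 in cHF+PC against cHF and -0.016 in cHF+PC+R against cHF+PC, and its interaction -0.0065.

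In the deposited value table, 61 genes passed in cHF+PC+R against cHF+PC and Krt8 passed in cHF+PC+R against cHF+R at 0.31 (adjusted p = 0.0361). Of the calls there, 39.4% rose in cHF+R against cHF, 30.6% in cHF+PC+R against cHF (49.8% before) and 58.7% in cHF+PC+R against cHF+R. Krt19 in cHF+PC+R was -0.096 against cHF, -0.00041 against cHF+R and -0.055 against cHF+PC, where Krt18 was -0.0011. Without background subtraction, 1217 genes passed in cHF+PC against cHF and 71 in cHF+PC+R against cHF+PC, and Krt8 passed in cHF+PC+R against cHF+R at 0.29 (adjusted p = 0.0423). Krt19 was 0.0031 in cHF+PC against cHF, -0.018 in cHF+PC+R against cHF and -0.021 against cHF+PC. With Agilent's processed signals, 63 genes passed in cHF+PC+R against cHF+PC, Krt18 was 0.0024 in cHF+R against cHF, and Krt19 was -0.040 in cHF+PC+R against cHF and -0.040 against cHF+PC. With array weights, 1238 genes passed in cHF+PC against cHF, 164 in cHF+PC+R against cHF+PC and 3 for the interaction, and Krt8 passed in cHF+PC against cHF at 0.28 (adjusted p = 0.0229). Krt19 was 0.031 in cHF+PC against cHF, 0.0057 in cHF+R against cHF and -0.014 in cHF+PC+R against cHF+PC, and the interaction was -0.039 for Krt8 and -0.019 for Krt19. With the compared groups alone, Krt23 in cHF+R against cHF was again 0.78, and the numbers in cHF+PC+R were 777 against cHF+R and 11 against cHF+PC. As a mean of changes within slides, Krt19 was -0.032 in cHF+PC+R against cHF+R.

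The replicate numbers were not used to pair the livers in the main fit. Over 40 pairs of arrays with the same number, r of the deviations from the group means was -0.334 to 0.396 (median 0.0214), and 14 pairs were above 0.1. These values cannot show whether the mice were paired. With the replicate block no call of a member changed, and Krt19 in cHF+R against cHF was 0.0082.

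With each array left out in turn, the number past the threshold was 439 (without cHF+PC replicate 4) to 872 in cHF+PC against cHF (486 without cHF replicate 5), and 759 (without cHF+R replicate 1) to 1976 in cHF+PC+R against cHF+R. It was 13 to 56 in cHF+PC+R against cHF+PC and 0 to 4 for the interaction. Krt8 in cHF+PC+R against cHF+R was 0.24 to 0.31. Krt18 was -0.061 to 0.033 in cHF+R against cHF and -0.0092 to 0.093 in cHF+PC+R against cHF+PC. Krt19 was -0.047 to 0.033 in cHF+PC against cHF, -0.074 to 0.066 in cHF+R against cHF, and -0.058 to 0.040 in cHF+PC+R against cHF. It was -0.058 to 0.082 in cHF+PC+R against cHF+R and -0.038 to 0.060 in cHF+PC+R against cHF+PC. The interaction was -0.0070 to 0.086 for Krt8 and -0.038 to 0.10 for Krt19.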
